A study of Mus musculus with 15 samples.

Results

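Bone morphogenetic protein (BMP) signalling was followed through 10 genes in sorted mouse intestinal epithelium: the ligands Bmp2, Bmp4 and Bmp7, the receptors Bmpr1a and Bmpr2, the target genes Id1, Id2 and Id3, and the inhibitors Smad6 and Bambi. They were chosen by name, as well-known parts of the pathway, with earlier results of these data known. All 10 were found among the 27179 genes of the count table. In the mm10 coordinates of the table, 3 of them lie on chromosome 2: Bmp2 (chr2:133553199-133562885), Id1 (chr2:152736274-152737410) and Bmp7 (chr2:172869686-172940293). Bmp4 (chr14:46383520-46390599) and Bmpr1a (chr14:34411068-34460615) share chromosome 14, and the others are Bmpr2 (chr1:59764637-59870859), Id2 (chr12:25093799-25096092), Id3 (chr4:136143822-136145392), Smad6 (chr9:63953076-64022059) and Bambi on chromosome 18. Values are read counts summed over all exons of a gene. Every mouse carried the APCmin mutation, a truncating mutation of Apc that gives intestinal tumors, together with an Lrig1-eGFP-IRES-CreERT2 allele that makes cells fluoresce where the stem and progenitor cell gene Lrig1 is active. The CreERT2 part of the allele was present in every group, and the labels name no inducing agent. EpCam-positive cells without CD45 and CD31 were sorted by fluorescence into 4 groups: Lrig1-high cells of colonic tumors (3 libraries), Lrig1-low cells of colonic tumors (3 libraries with reads), Lrig1-high cells of normal colonic epithelium (4 libraries) and Lrig1-low cells of normal colonic epithelium (4 libraries). The normal tissue came from the same mutant strain, so no group is free of the mutation. Age and animal are not named in the labels, so p-values measure the spread between libraries, which can be technical in part. Each library carries a running number in its title, written here as S01 to S15.

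The 14 libraries compared held 9508505 to 17296536 counts. A further tumor Lrig1-low library, S15, held 357 counts, none of them in the 10 genes, and was left out. Lrig1 itself overlapped between the sorted fractions. It had 55.7 to 148.2 CPM (counts scaled to a total of 1e6) in tumor Lrig1-high and 43.0 to 141.7 CPM in tumor Lrig1-low libraries, and 36.4 to 145.9 CPM in normal Lrig1-high and 45.3 to 85.5 CPM in normal Lrig1-low libraries. The level went against the sort label in S08 (tumor Lrig1-high, 55.7 CPM), S07 (tumor Lrig1-low, 141.7 CPM), S10 (normal Lrig1-high, 36.4 CPM) and S09 (normal Lrig1-low, 85.5 CPM). High and low are therefore the labels' terms, and fold changes between the fractions without these 4 libraries are given for Bmp2, Bmp7, Bmpr1a, Id3 and Bambi. Without them 0 of the 9 tested genes passed in each comparison described below. The tumor fractions then held S04 and S12 (Lrig1-high) against S03 and S11 (Lrig1-low). The tissue is called colonic after its label, which the markers did not bear out clearly. Markers of colon epithelium summed to 35.6 to 268.6 CPM over 5 genes, with Car1 at 0 to 0.222 CPM and Aqp8 at 0 to 4.93 CPM, against 568.4 to 6477 CPM over 8 enterocyte genes. Markers of Paneth cells, a cell type of the small intestine, summed to 206 to 3092 CPM over 4 genes in tumor libraries and to 52.3 to 8965 CPM in normal libraries. A pair of tumor libraries stood apart. S12 (tumor Lrig1-high) had the fewest detected genes (11995) and the largest share of mitochondrial ribosomal RNA (42.8%), and S11 (tumor Lrig1-low) had the most detected genes (16425).

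BMPs are secreted dimers that bring together type I receptors such as Bmpr1a and type II receptors such as Bmpr2 on the cell surface. The type I receptor then phosphorylates Smad1, Smad5 or Smad9, which enter the nucleus with Smad4 and switch on target genes, among them the Id genes and the feedback inhibitor Smad6. Id proteins bind E proteins, a class of helix-loop-helix transcription factors, and keep them off DNA. In the intestine the pathway is known to be most active away from the crypt base, where differentiated cells lie, and to restrain stem cell proliferation, while antagonists made by cells under the crypt hold it down around stem cells.

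The promoters of Id2, Id3 and Smad6 are shown because the levels of Id2 and Id3, and by rank those of Id3 and Smad6, were correlated across libraries, as described further on. Sequences were taken from RefSeq (GRCm38.p6) and run from 250 bases before to 10 bases after the annotated start, on the gene's strand. RefSeq promoter entries were matched for 6 of the 10 genes (Bmp4, Bmpr1a, Bmpr2, Id2, Id3 and Smad6) and not for Id1, Bmp2, Bmp7 and Bambi. Capitals mark matches to 3 words searched on both strands: the Smad palindrome GTCTAGAC, the word GGCGCC that occurs in GC-rich Smad1 and Smad5 sites, and the Smad box CAGAC. On the other strand the box reads GTCTG.
Id2, chr12:25096083-25096342, minus strand: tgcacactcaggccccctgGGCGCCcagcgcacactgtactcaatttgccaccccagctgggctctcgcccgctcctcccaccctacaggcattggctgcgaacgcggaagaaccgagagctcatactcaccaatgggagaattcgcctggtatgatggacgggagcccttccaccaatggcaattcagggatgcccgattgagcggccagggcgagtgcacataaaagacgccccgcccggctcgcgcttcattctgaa
Id3, chr4:136143572-136143831, plus strand: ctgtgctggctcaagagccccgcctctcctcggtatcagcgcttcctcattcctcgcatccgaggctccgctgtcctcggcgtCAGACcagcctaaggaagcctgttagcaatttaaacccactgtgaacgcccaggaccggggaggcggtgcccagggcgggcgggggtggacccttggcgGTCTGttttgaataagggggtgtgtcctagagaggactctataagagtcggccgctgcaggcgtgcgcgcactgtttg
Smad6, chr9:64022050-64022309, minus strand: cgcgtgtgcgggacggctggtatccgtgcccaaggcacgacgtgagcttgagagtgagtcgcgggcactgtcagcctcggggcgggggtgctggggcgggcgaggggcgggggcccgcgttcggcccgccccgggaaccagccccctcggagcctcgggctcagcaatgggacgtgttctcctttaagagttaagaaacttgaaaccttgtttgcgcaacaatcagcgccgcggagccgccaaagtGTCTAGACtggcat

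The Smad6 window held 1 copy of GTCTAGAC, which begins 4 bases before the start and runs across it. Among 32851 promoter windows of the same length, 58 (0.177%) held this palindrome. The Id2 window held 1 copy of GGCGCC, beginning 231 bases before the start, a word found in 9.96% of windows, and the Bmpr1a and Bmpr2 windows held 1 each as well. The Bmpr1a window belongs to another annotated start, 41931 bases upstream of the first exon in the count table. The Id3 window held CAGAC in both orientations, 167 and 68 bases before the start, a word found in 44.0% of windows. The 3 words do not overlap one another, and a match describes letters only, not binding.

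The 10 genes covered a wide range of levels. Per kilobase of exon (RPKM, CPM divided by the length in kilobases, mean of 14 libraries), Id1 came first at 41.5, followed by Id2 at 28.5 and Id3 at 25.7. Bmpr1a had 19.8 RPKM and Bmpr2 13.7 RPKM, and the rest lay under 6: Bmp7 at 5.98, Smad6 at 5.23, Bmp2 at 2.84, Bambi at 1.22 and Bmp4 at 0.0504 RPKM. Neighbours in this order were not all distinct. Id2 lay above Id3 in 6 of 14 libraries, Id3 above Bmpr1a in 8 and Bmp7 above Smad6 in 10, whereas Id1 lay above Id2 in 13, Bmpr1a above Bmpr2 in 13 and Bmpr2 above Bmp7 in all 14. The receptors varied least between libraries, with a coefficient of variation in CPM of 23.0% for Bmpr1a and 26.3% for Bmpr2. Bambi varied most among the genes detected throughout, at 92.1%, followed by Id2 at 81.0% and Bmp7 at 73.5%.

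**Figure D1:**
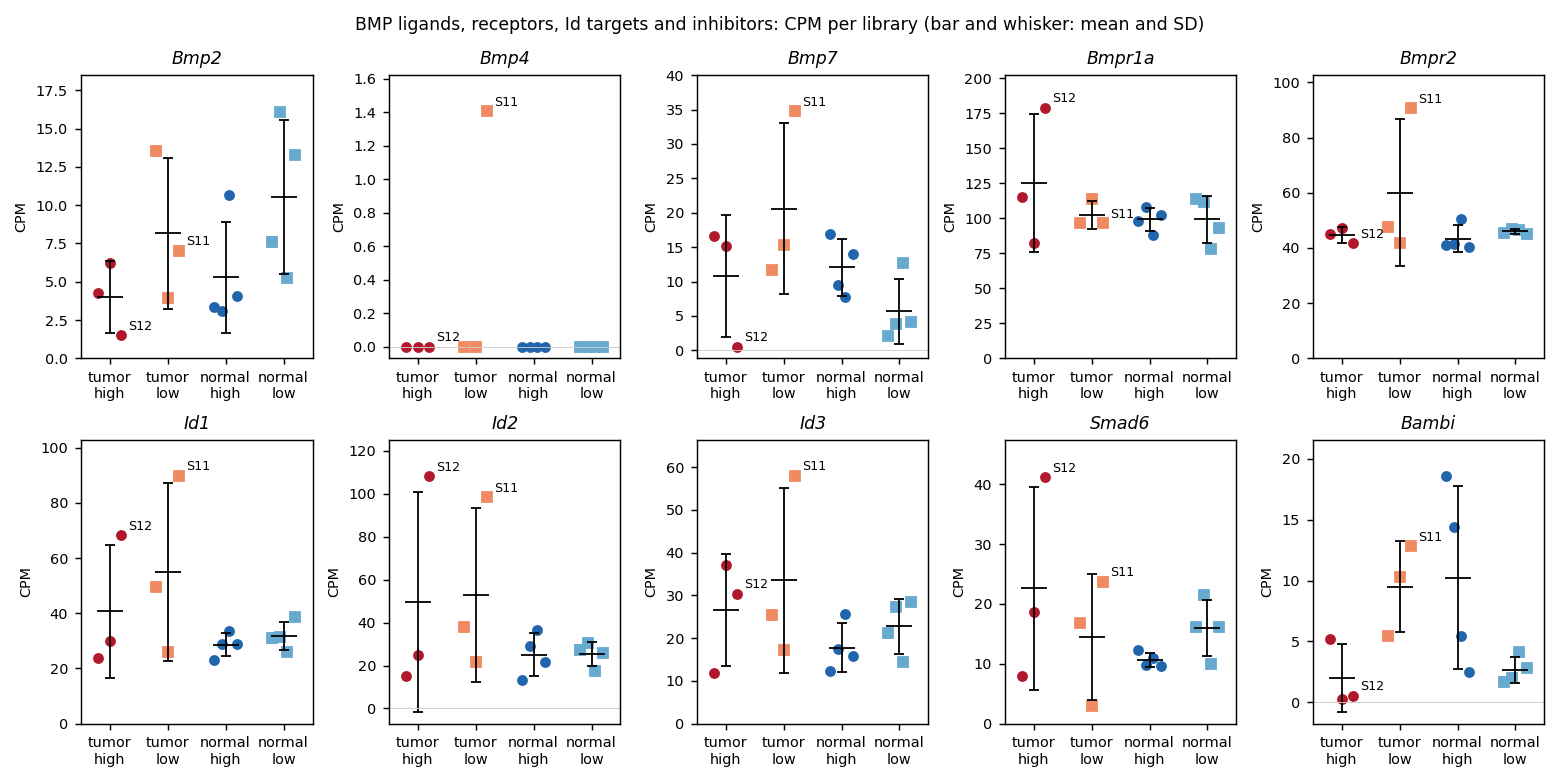
CPM (TMM-scaled) of each of the 10 genes in each library, one panel per gene with its own axis. Points are libraries in the groups tumor Lrig1-high, tumor Lrig1-low, normal Lrig1-high and normal Lrig1-low, bars give mean and SD (not drawn for Bmp4), and S11 and S12 are labelled. Id1 and Id2 sit highest in S11 and S12, Bmpr1a, on this scale, in S12, and Bmp4 is above 0 in S11 alone.

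No gene of the 10 passed the test in any comparison, and the spread between tumor libraries was wide. Differences were tested with edgeR's quasi-likelihood test over 13883 genes, and a call is a Benjamini-Hochberg adjusted p under 0.05. Bmp4 fell under the filter on low counts, so 9 genes were tested. Between tumor and normal Lrig1-low cells 0 of 9 were called, against 0.331% of all genes. The count was also 0 of 9 between tumor and normal Lrig1-high cells (background 0%), for tumor against normal averaged over both fractions (background 2.22%), and for Lrig1-high against Lrig1-low cells of normal epithelium (background 0%) and of tumors (background 0%). It was 0 of 9 for the interaction, the difference of the sort contrast in tumors and that in normal epithelium (background 0%). At an unadjusted p under 0.05 the counts were 1, 1, 2, 1, 1 and 1 of 9 in the same order, against 14%, 11.2%, 17.4%, 3.59%, 7.51% and 7.2% of all genes. DESeq2 called 0 of these genes in each comparison, while it called 4.8%, 0.923%, 7.26%, 0.00521%, 0.21% and 0.0261% of all genes in that order. limma-voom with sample weights called 10%, 0%, 3.95%, 30%, 0% and 0% of all genes in that order. Among the 9 it called Bmp7 in tumor against normal Lrig1-low cells, Bmp2 and Bmp7 between the fractions of normal epithelium, and none in the other 4 comparisons.

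**Figure D2:**
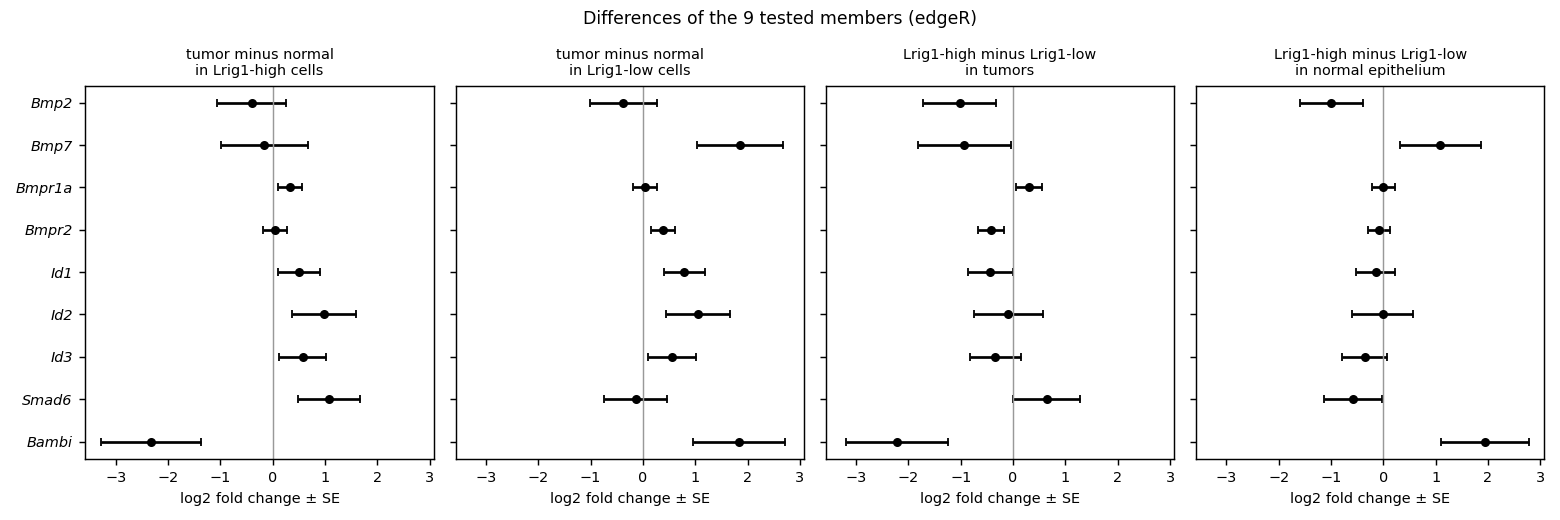
Log2 fold changes of the 9 tested genes in 4 comparisons, with standard errors (edgeR). Positive values are higher in tumor than in normal libraries, or in Lrig1-high than in Lrig1-low libraries. Bambi, Bmp7 and Smad6 have opposite signs in the sort comparisons of tumors and of normal epithelium, and no value passed the test.

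Bmp4, a ligand that is made mainly by the mesenchyme under the epithelium, was at 0 counts in 13 of 14 libraries. At these depths a count of 0 allows up to 0.345 to 0.649 CPM (3 fragments, or 6 counts since both reads of a pair count; counting error only). The exception was S11 of the tumor Lrig1-low group, with 19 counts (1.41 CPM). In bulk libraries fewer cells of a type and less RNA per cell cannot be told apart.

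Bmp2, a ligand of the upper crypt and villus epithelium, averaged 4.0 ± 2.36 CPM in tumor Lrig1-high and 8.15 ± 4.90 CPM in tumor Lrig1-low libraries (SD, n = 3 each), and 5.30 ± 3.61 CPM in normal Lrig1-high and 10.55 ± 5.02 CPM in normal Lrig1-low libraries (SD, n = 4 each). It had 4.28 (S04), 6.21 (S08) and 1.51 CPM (S12) in tumor Lrig1-high libraries, against 13.5 (S03), 3.91 (S07) and 7.04 CPM (S11) in tumor Lrig1-low libraries. It had 3.34 (S02), 3.11 (S06), 10.7 (S10) and 4.05 CPM (S14) in normal Lrig1-high libraries, against 7.58 (S01), 16.1 (S05), 5.22 (S09) and 13.3 CPM (S13) in normal Lrig1-low libraries. The fractions overlapped in both tissues, through S10 in normal epithelium and S07 in tumors, 2 of the libraries whose Lrig1 level goes against the label. The log2 difference of Lrig1-high against Lrig1-low was -0.99 ± 0.60 (SE) in normal epithelium (edgeR adjusted p = 1.0) and -1.02 ± 0.70 in tumors (edgeR adjusted p = 0.736). In normal epithelium it was -1.59 without S10 (edgeR adjusted p = 0.310), and leaving out 1 library at a time gave -1.59 to -0.70. Without S07 to S10 it was -1.79 ± 0.53 in normal epithelium (edgeR adjusted p = 0.0872) and -1.76 ± 0.66 in tumors (edgeR adjusted p = 0.210). Tumor against normal it was -0.39 ± 0.46 averaged over the fractions (edgeR adjusted p = 0.724). limma-voom, which gave less weight to deviating libraries, called the difference in normal epithelium at -1.57 (adjusted p = 0.0101), in a fit that called 30% of all genes.

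Bmp7, a ligand that can pair with Bmp2 or Bmp4, had a difference of the other sign between the normal fractions, which did not pass the test. It had 16.6 (S04), 15.2 (S08) and 0.541 CPM (S12) in tumor Lrig1-high libraries, against 11.7 (S03), 15.4 (S07) and 34.7 CPM (S11) in tumor Lrig1-low libraries. It had 16.97 (S02), 9.53 (S06), 7.70 (S10) and 13.97 CPM (S14) in normal Lrig1-high libraries, against 2.04 (S01), 3.76 (S05), 12.7 (S09) and 4.12 CPM (S13) in normal Lrig1-low libraries. The lowest and the highest value of Bmp7 were the 2 tumor libraries that stood apart, S12 and S11, and in normal epithelium S09 alone made the fractions overlap. Tumor Lrig1-low exceeded normal Lrig1-low by 1.86 ± 0.83 on the log2 scale (unadjusted p = 0.0418, edgeR adjusted p = 0.332). The difference was 1.23 without S11 and S12 (edgeR adjusted p = 0.452). Lrig1-high against Lrig1-low it was 1.09 ± 0.77 in normal epithelium (edgeR adjusted p = 1.0) and -0.93 ± 0.89 in tumors (edgeR adjusted p = 0.803). Without S11 and S12 the tumor value changed sign to 0.24 (edgeR adjusted p = 1.0). That left S04 and S08 against S03 and S07, and the Lrig1 levels of S07 and S08 go against their labels. The normal value was 1.88 without S09 (edgeR adjusted p = 0.604). Without S07 to S10 it was 2.04 ± 0.92 (edgeR adjusted p = 0.237) and the tumor value -1.35 (edgeR adjusted p = 0.511). The interaction was -2.02 ± 1.18 (edgeR adjusted p = 0.716), and -3.40 without S07 to S10 (edgeR adjusted p = 0.448). In S12 Bmp7 had 5 counts, under the floor used above for Bmp4. The size of the tumor values and interactions that keep S12 is therefore uncertain. limma-voom called Bmp7 between tumor and normal Lrig1-low cells at 1.96 (adjusted p = 0.0307, with 10% of all genes called) and between the fractions of normal epithelium at 1.80 (adjusted p = 0.0123, with 30% of all genes called).

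Neither receptor passed the test in any comparison, and the highest value of each was in a tumor library. Bmpr1a, the type I receptor whose loss gives juvenile polyps in humans, averaged 125.5 ± 49.3 CPM in tumor Lrig1-high and 102.3 ± 10.1 CPM in tumor Lrig1-low libraries (SD, n = 3 each), and 99.3 ± 8.39 CPM in normal Lrig1-high and 99.2 ± 16.7 CPM in normal Lrig1-low libraries (SD, n = 4 each). S12 had 179.2 CPM, and the other 13 libraries had 78.3 to 115.2 CPM. That gap rested on the TMM scaling, since without it S12 had 125.1 CPM, S04 124.1 CPM and S07 138.6 CPM. The log2 difference of Lrig1-high against Lrig1-low in normal epithelium was 0.00 ± 0.21 (edgeR adjusted p = 1.0). In tumors it was 0.30 ± 0.25 (edgeR adjusted p = 0.778), and 0.67 ± 0.22 without S07 to S10 (edgeR adjusted p = 0.185). The latter fit keeps S12, whose level rested on the TMM scaling. Without that scaling S04 and S12 had 124.1 and 125.1 CPM, against 92.8 (S03) and 115.1 CPM (S11). Tumor against normal the log2 difference was 0.34 ± 0.23 in Lrig1-high cells (edgeR adjusted p = 0.576), and -0.03 without S11 and S12 (edgeR adjusted p = 0.970).

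Bmpr2, the type II receptor, had 45.03 (S04), 47.4 (S08) and 41.7 CPM (S12) in tumor Lrig1-high libraries, against 47.7 (S03), 41.9 (S07) and 90.6 CPM (S11) in tumor Lrig1-low libraries. The 8 normal libraries held 40.4 to 50.7 CPM. S11 was highest, also without TMM scaling (108.2 CPM). Tumor Lrig1-low against normal Lrig1-low gave 0.38 ± 0.23 on the log2 scale (edgeR adjusted p = 0.542), and -0.06 without S11 and S12 (edgeR adjusted p = 0.916).

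Id1 and Id2 had their highest values in S11 and S12, and Id3 in S11 and S08, all tumor libraries. Id1 had 23.9 (S04), 29.8 (S08) and 68.3 CPM (S12) in tumor Lrig1-high libraries and 49.4 (S03), 25.9 (S07) and 89.8 CPM (S11) in tumor Lrig1-low libraries. It had 23.2 to 33.6 CPM in normal Lrig1-high and 26.2 to 38.5 CPM in normal Lrig1-low libraries. S03, S11 and S12 lay above every normal library, and S04, S07 and S08 lay within the normal range. Averaged over both fractions, the log2 difference of tumor against normal was 0.65 ± 0.28 (unadjusted p = 0.0368, edgeR adjusted p = 0.249). It was 0.05 without S11 and S12 (edgeR adjusted p = 0.934).

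Id2 followed the same libraries. It had 15.2 (S04), 25.1 (S08) and 108.3 CPM (S12) in tumor Lrig1-high libraries and 37.8 (S03), 21.7 (S07) and 98.6 CPM (S11) in tumor Lrig1-low libraries. It had 13.1 to 36.4 CPM in normal Lrig1-high and 17.5 to 30.3 CPM in normal Lrig1-low libraries. The averaged difference of tumor against normal was 1.02 ± 0.44 on the log2 scale (unadjusted p = 0.0350, edgeR adjusted p = 0.244), the lowest adjusted p among the 9 genes in any comparison. Without S11 and S12 it was -0.06 (edgeR adjusted p = 0.950), so the size and the sign rested on those 2 libraries.

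Id3 had 11.9 (S04), 37.2 (S08) and 30.4 CPM (S12) in tumor Lrig1-high libraries and 25.4 (S03), 17.2 (S07) and 58.1 CPM (S11) in tumor Lrig1-low libraries. It had 12.2 to 25.7 CPM in normal Lrig1-high and 14.5 to 28.4 CPM in normal Lrig1-low libraries. S08, S11 and S12 lay above the normal range and S04 below it. Without TMM scaling S12 had 21.2 CPM, within the normal range. The averaged difference of tumor against normal was 0.56 ± 0.32 (edgeR adjusted p = 0.402), and 0.16 without S11 and S12 (edgeR adjusted p = 0.873). Between the sorted fractions no Id gene differed by more than 0.44 on the log2 scale in either tissue, with standard errors of 0.37 to 0.66. Without S07 to S10 the difference of Id3 was -0.92 in tumors (edgeR adjusted p = 0.331) and -0.73 in normal epithelium (edgeR adjusted p = 0.332).

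Smad6, an inhibitory Smad that blocks the type I receptor, had 7.93 (S04), 18.7 (S08) and 41.2 CPM (S12) in tumor Lrig1-high libraries and 16.8 (S03), 2.93 (S07) and 23.7 CPM (S11) in tumor Lrig1-low libraries. It had 9.63 to 12.2 CPM in normal Lrig1-high and 9.97 to 21.5 CPM in normal Lrig1-low libraries. Tumor libraries thus held both the lowest and the highest value. Tumor against normal in Lrig1-high cells gave 1.08 ± 0.60 on the log2 scale (edgeR adjusted p = 0.503), and 0.29 without S11 and S12 (edgeR adjusted p = 0.892).

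Bambi, a decoy receptor without a kinase domain, had larger log2 differences between the sorted fractions than the other 8 tested genes in both tissues (edgeR), none of which passed the test. It had 5.23 (S04), 0.274 (S08) and 0.541 CPM (S12) in tumor Lrig1-high libraries, against 5.42 (S03), 10.3 (S07) and 12.8 CPM (S11) in tumor Lrig1-low libraries. It had 18.6 (S02), 14.4 (S06), 5.46 (S10) and 2.53 CPM (S14) in normal Lrig1-high libraries, against 1.71 (S01), 1.97 (S05), 4.16 (S09) and 2.80 CPM (S13) in normal Lrig1-low libraries. The tumor fractions did not overlap, with Lrig1-high below Lrig1-low, as in 5.24% of all genes. Without TMM scaling they did overlap, with S04 at 5.64 CPM and S03 at 5.22 CPM. Tumor Lrig1-low did not overlap normal Lrig1-low and lay above it, as in 9.95% of all genes. Of the 9 tested genes Bambi alone had groups without overlap, in 2 of the 5 comparisons of groups. Groups without overlap in either direction were found for 18.3% of all genes between tumor and normal Lrig1-low cells, for 8.39% between tumor and normal Lrig1-high cells, for 1.46% between all tumor and all normal libraries, for 2.84% between the normal fractions and for 7.46% between the tumor fractions. Lrig1-high against Lrig1-low gave -2.22 ± 0.98 on the log2 scale in tumors (unadjusted p = 0.0404, edgeR adjusted p = 0.655) and 1.94 ± 0.84 in normal epithelium (unadjusted p = 0.0368, edgeR adjusted p = 1.0). Without S07 to S10 these were -1.57 in tumors (edgeR adjusted p = 0.445) and 2.47 in normal epithelium (edgeR adjusted p = 0.154). The interaction was -4.16 ± 1.29 (unadjusted p = 0.00638, edgeR adjusted p = 0.686). In Lrig1-high cells, tumor against normal gave -2.33 ± 0.95 (edgeR adjusted p = 0.390). Leaving out S04, the tumor Lrig1-high library with the highest Bambi value, made 3 of these differences pass. They were then -4.53 between the tumor fractions (edgeR adjusted p = 0.0377, with 2.53% of all genes called), -6.47 for the interaction (edgeR adjusted p = 0.0295, 1.09% called) and -4.64 for tumor against normal in Lrig1-high cells (edgeR adjusted p = 0.0258, 5.59% called). That fit leaves S08 and S12 as the tumor Lrig1-high group, the 2 libraries with the fewest detected genes (12900 and 11995). Bambi had 3 counts in S08 and 5 in S12, under the floor of 6 counts used above for Bmp4. These 3 log2 differences therefore rest on values near 0, and their size is uncertain.

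The libraries with high Id levels also differed in markers of other cells and in RNA composition. Endothelial markers summed to 193.6 CPM over 10 genes in S11, against 2.71 to 52.2 CPM in the other 13 libraries. Of the sum in S11, Cdh5 made up 154.9 CPM, while Pecam1 had 1.11 CPM, Kdr 0.222 CPM, and Tie1, Emcn and Cldn5 were at 0. The sort had removed cells with CD31, the product of Pecam1. Markers of fibroblasts and smooth muscle summed to 36.8 CPM over 10 genes in S12, mostly Myh11 (23.5 CPM) and Acta2 (12.8 CPM) with Des, Lum and Col1a1 at 0. They summed to 34.0 CPM in S11, mostly Pdgfra (26.1 CPM), and to 0.913 to 10.8 CPM elsewhere. Leukocyte markers summed to 57.1 CPM over 10 genes in S08, the library second highest in Id3, against 2.92 to 29.0 CPM in the other 13. In S08 the sum was made up of Ptprc, the gene of CD45 (46.1 CPM), and Itgam (11.04 CPM), with Cd3e, Cd79a, Cd68, Csf1r and Laptm5 at 0, and the sort had removed cells with CD45. Tuft cell markers summed to 906.8 CPM over 4 genes in S08, against 16.7 to 444 CPM in the other 13. Whether endothelial cells, fibroblasts, smooth muscle or leukocytes were present was not tested. Whether such cells, tuft cells or the RNA composition of S12 had a part in the Id, Smad6, Bmpr1a and Bmpr2 values was not tested either.

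**Figure D3:**
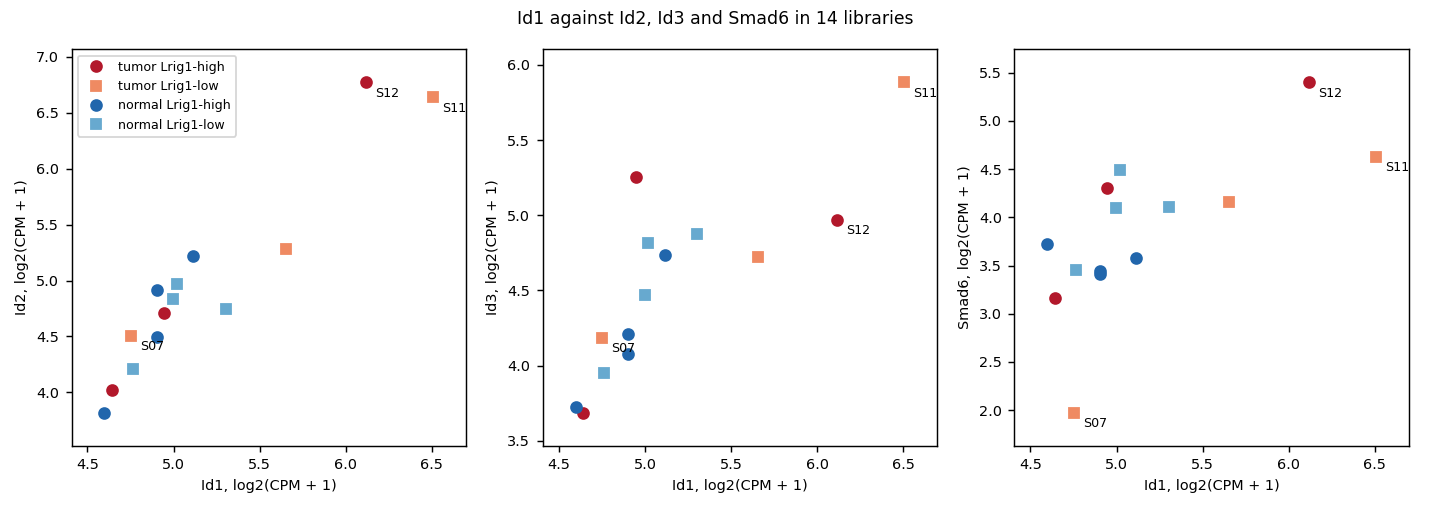
Id2, Id3 and Smad6 against Id1, each as log2(CPM + 1), over 14 libraries coloured by group. Id2 climbs with Id1, and Id3 does so with more scatter and no steady climb in the middle of the range. S11 and S12 lie at the upper end of Id1, and Smad6 follows less tightly with S07 lowest.

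Across the 14 libraries the 3 Id genes moved together. Correlations were computed on log2(CPM + 1) for all 45 pairs of the 10 genes, with permutation p-values adjusted over the 45. Id1 and Id2 had Pearson r = 0.943 and Spearman rho = 0.921 (permutation, adjusted p = 0.0009 for each), and r = 0.816 without S11 and S12. After subtraction of the group means r was 0.941 over all 14 libraries, with S11 and S12 kept in. It was not computed for each group apart. Id1 and Id3 had r = 0.808 and rho = 0.859 (permutation, adjusted p = 0.00765 and 0.00405), and r = 0.680 without S11 and S12. Id2 and Id3 had r = 0.794 and rho = 0.776 (permutation, adjusted p = 0.00795 and 0.0166), and r = 0.757 without S11 and S12.

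Over the 14 libraries Smad6 passed with Id3 and Id1, by rank only. With Id3 it had r = 0.651 and rho = 0.820 (permutation, adjusted p = 0.0793 and 0.0087), and with Id1 r = 0.690 and rho = 0.780 (permutation, adjusted p = 0.0593 and 0.0160). With Id2 neither measure passed (r = 0.680 and rho = 0.684, permutation, adjusted p = 0.0653 and 0.0576). After subtraction of group means r of Smad6 was 0.882 with Id1, 0.802 with Id2 and 0.744 with Id3. Without S11 and S12 it was 0.503 with Id1 and 0.375 with Id2, and without S04 and S11 it was 0.612 with Id3. Bmpr2 and Id3 passed on Pearson alone (r = 0.710, rho = 0.569, permutation, adjusted p = 0.0470 and 0.181), and r fell to 0.417 without S11 and S14, the libraries farthest from the median of Bmpr2. Bmp2 and Bmpr2 passed by rank alone (rho = 0.745, permutation, adjusted p = 0.0228, with r = 0.314 and adjusted p = 0.437). In all, 4 of 45 pairs passed on Pearson's r. The share of passing pairs among all genes was not computed, so these counts are descriptions. Of 8687 genes outside the 10, the closest reached a similar r, Itgb1 with Id1 (0.939) and Dip2b with Id2 (0.946). Over the 10 libraries without S07 to S10, 5 passed: the 3 pairs among Id1, Id2 and Id3 were among them, Id2 and Smad6 (r = 0.842, permutation, adjusted p = 0.0163) and Bmp7 and Bambi (r = 0.805, permutation, adjusted p = 0.0474) were added, and Bmpr2 and Id3 did not (r = 0.766, permutation, adjusted p = 0.0662). For Bmp7 and Bambi r was 0.632 when S01 and S12 were also left out, and 0.631 after subtraction of group means. For Id2 and Smad6 it was 0.605 when S11 and S12 were also left out, and 0.850 after that subtraction. In S12 Bmp7 and Bambi had 5 counts each, under the floor used above for Bmp4. The size of their r is therefore uncertain.

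The measured levels of Lrig1, of 8 stem cell genes and of 8 enterocyte genes gave a second view of the same libraries, since the sort labels and the Lrig1 level did not always match. These 27 relations with the 9 tested genes were added after the data had been seen. The share of all genes that would pass in the same way was not computed. Bmp2 was lower where stem cell genes were higher, with r = -0.802 and rho = -0.837 against the mean log2(CPM + 1) of the stem cell list (permutation, adjusted p = 0.0108 and 0.00999). Against the enterocyte list Bmp2 had r = 0.812 and rho = 0.697 (permutation, adjusted p = 0.0108 and 0.0290). Without the 2 libraries farthest from the median of each list these were -0.683 and 0.737, and after subtraction of group means -0.819 and 0.832. Group means follow the sort labels, which the Lrig1 levels of S07 to S10 go against. The centred values can therefore keep part of a difference between the fractions. These relations are not given without S07 to S10. Against Lrig1, Bmp2 had r = -0.704 and rho = -0.719 (permutation, adjusted p = 0.0348 and 0.0290).

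**Figure D4:**
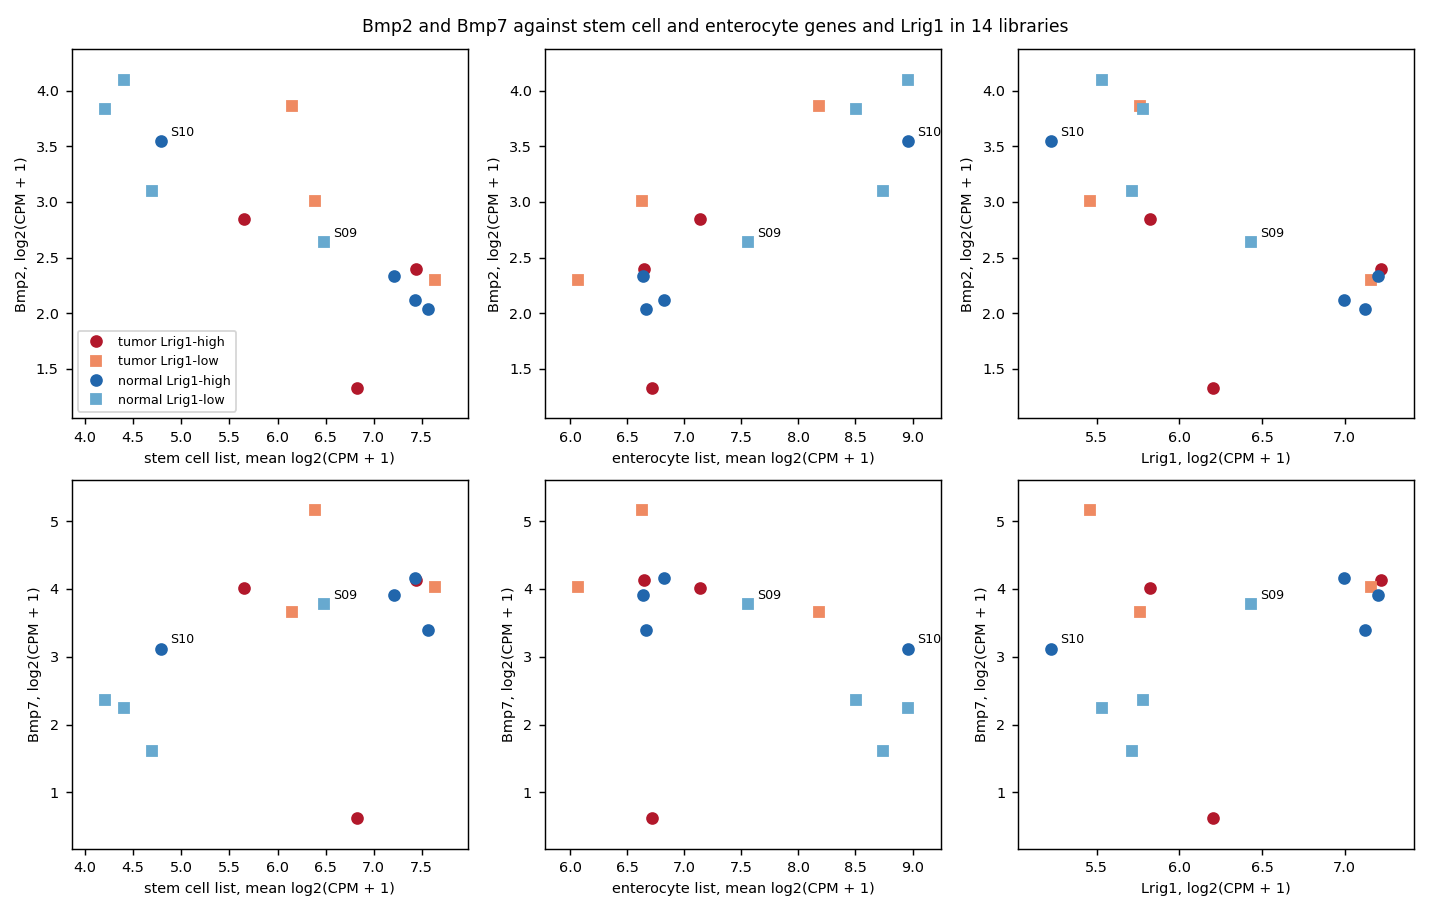
Bmp2 and Bmp7, as log2(CPM + 1), against the mean log2(CPM + 1) of 8 stem cell genes and of 8 enterocyte genes and against Lrig1, as log2(CPM + 1), in the 14 libraries, coloured by group. Bmp2 falls along the stem cell axis and climbs along the enterocyte axis, whereas Bmp7 scatters more, with S12 far below the others.

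Bmp7 showed the opposite signs without passing on Pearson's r. It had r = 0.454 and rho = 0.530 with the stem cell list (permutation, adjusted p = 0.234 and 0.106), and r = -0.460 and rho = -0.657 with the enterocyte list (permutation, adjusted p = 0.234 and 0.0376). Bambi had r = 0.483 with the stem cell list (rho = 0.508, permutation, adjusted p = 0.222 and 0.122). Bmpr1a passed with none of the 3 measures. Id3 was lower where Lrig1 was higher, with r = -0.772 and rho = -0.706 (permutation, adjusted p = 0.0108 and 0.0290), r = -0.709 without S04 and S14, and r = -0.825 after subtraction of group means. Bmpr2 had r = -0.548 and rho = -0.802 with Lrig1 (permutation, adjusted p = 0.0310 and 0.0161). Id1 (rho = -0.750, permutation, adjusted p = 0.0263), Id2 (rho = -0.688, permutation, adjusted p = 0.0290) and Smad6 (rho = -0.688, permutation, adjusted p = 0.0290) passed with Lrig1 by rank only, with r of -0.540, -0.528 and -0.615. No relation of the Id genes or Smad6 with the enterocyte list passed.

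The other genes of the pathway were read from a list of 56 ligands, receptors, Smads, antagonists, intracellular brakes, targets and E proteins, of which 39 were tested. That list was drawn up with earlier results of these data known. Its shares, set beside those of all genes, are therefore descriptions and no test of the list. In tumor against normal, averaged over both fractions, 2 of 39 were higher and 0 lower (edgeR), against 1.82% higher and 0.396% lower of all genes. At an unadjusted p under 0.05 there were 14 of 39, against 17.4% of all genes. The median log2 fold change of the 39 was 0.16, against -0.02 for all genes tested, and 23 of the 39 were positive, against 48.4% of all genes. In the other 5 comparisons 0 of 39 were called, with 11, 2, 2, 2 and 4 at an unadjusted p under 0.05 (tumor against normal in Lrig1-low cells, in Lrig1-high cells, the sort in normal epithelium, the sort in tumors, the interaction). The shares of all genes at that p were 14%, 11.2%, 3.59%, 7.51% and 7.2% in that order.

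Fst, which encodes follistatin, a secreted protein that binds activins and some BMPs, was higher in tumors. It had 1.82 (S04), 7.85 (S08) and 5.95 CPM (S12) in tumor Lrig1-high libraries and 8.94 (S03), 1.96 (S07) and 17.4 CPM (S11) in tumor Lrig1-low libraries. The 8 normal libraries held 0 to 0.849 CPM, all below the lowest tumor library. The log2 fold change was 4.96 ± 1.03 (edgeR adjusted p = 0.0315). Of the normal libraries only S10 (0.849 CPM) lay above the floor of 6 counts used above for Bmp4. The size of this fold change is therefore uncertain. Tcf4, an E protein that Id proteins can bind, had 33.1 (S04), 32.9 (S08) and 96.7 CPM (S12) in tumor Lrig1-high libraries and 62.4 (S03), 42.5 (S07) and 182.6 CPM (S11) in tumor Lrig1-low libraries. The 8 normal libraries held 16.6 to 33.0 CPM. The log2 fold change was 1.68 ± 0.34 (edgeR adjusted p = 0.0302), with the largest values in the libraries with the most Id1 and Id2. Both calls were near the threshold. Without S11 and S12 Fst had 4.49 (edgeR adjusted p = 0.0965) and Tcf4 0.86 (edgeR adjusted p = 0.0803). Leaving out 1 library at a time, the Fst call was lost without S01, S02, S05, S06, S11, S13 or S14 (4.57 without S11, edgeR adjusted p = 0.101). The Tcf4 call was lost without S01, S02, S05, S06, S11, S12, S13 or S14 (1.24 without S11, edgeR adjusted p = 0.0955).

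**Figure D5:**
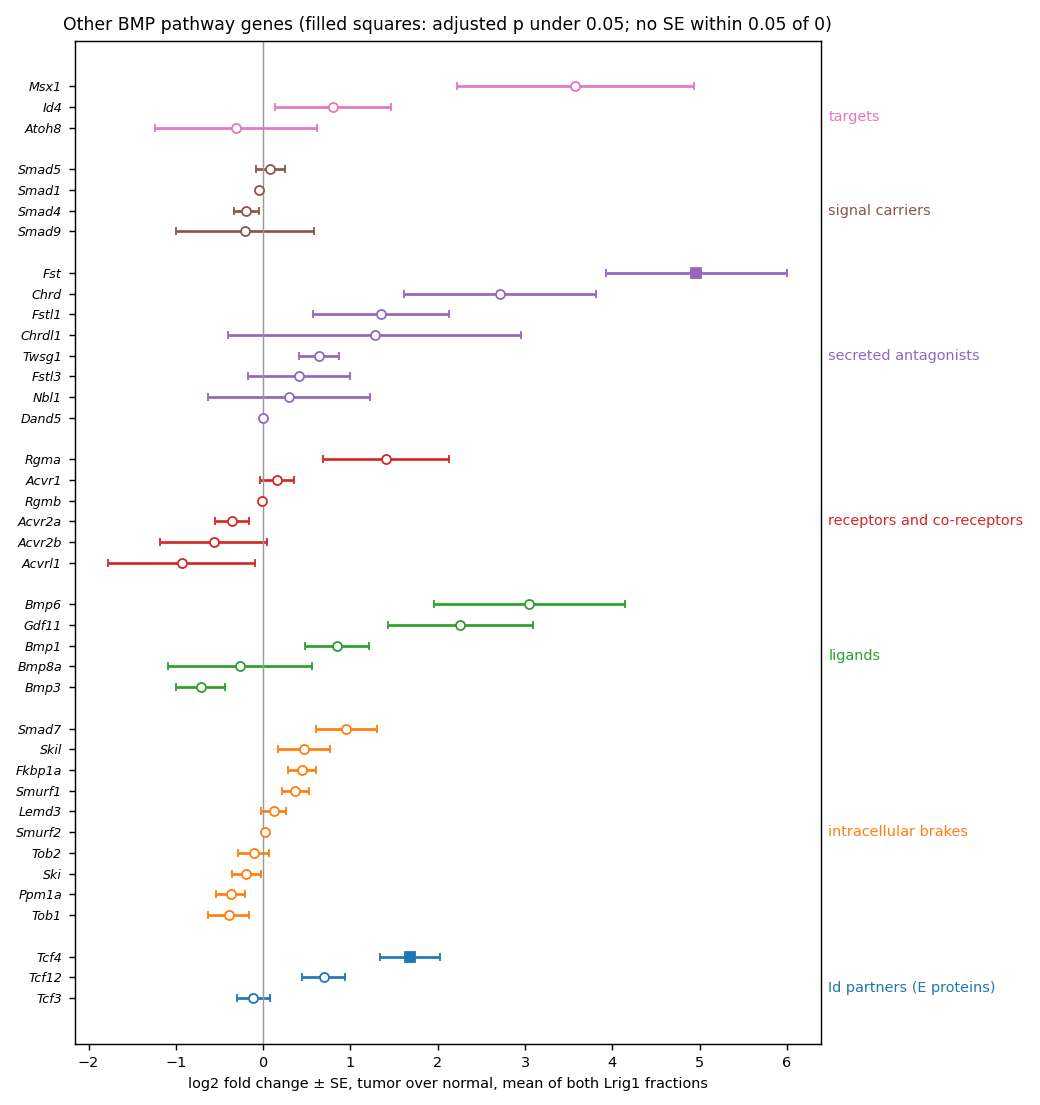
Log2 fold changes of the 39 tested pathway genes, tumor against normal averaged over both fractions, grouped by role, with standard errors (edgeR; none drawn for values within 0.05 of 0). Filled squares mark Fst and Tcf4, the 2 genes with an adjusted p under 0.05.

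Several pathway genes gave no counts or nearly none in these epithelial libraries. Bmp5, Gdf2, Gdf6, Gdf7, Bmpr1b, Hjv and Sostdc1 had 0 counts in all 14 libraries. The crypt niche antagonist Grem1 had 2 counts in all, and Nog had 32 counts, most of them in S08 (1.92 CPM). Among the ligands of this list, which leaves out Bmp2, Bmp4 and Bmp7, Bmp3 was the most abundant per kilobase (20.04 RPKM, mean of 14 libraries). Bmp1, which is a protease rather than a BMP ligand, had 3.17 RPKM, below Bmp7 at 5.98 RPKM. Rgmb, a BMP co-receptor, had 18.01 RPKM and Acvr2a, a type II receptor, 5.51 RPKM. Of the signal carriers Smad4 had 30.8 and Smad1 23.5 RPKM, of the secreted antagonists Twsg1 had 8.31 and Fstl1 4.72 RPKM, and of the intracellular brakes Tob1 had 46.3 and Ppm1a 43.7 RPKM. Among further targets Msx1 had 4.51 and Id4 3.76 RPKM, and among E proteins Tcf3 had 39.1 and Tcf12 26.2 RPKM.

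The genes whose pattern over the 14 libraries was most like each of the 9 were sought among 8687 tested genes with a mean of at least 10 CPM, by Pearson's r of log2(CPM + 1). These values are descriptions, since the libraries share depth and composition. Bmp2 was closest to Plekhg6 (r = 0.946) and Itprid2 (0.945), and Bmp7 to Piezo1 (0.942) and N4bp3 (0.941). Bmpr1a was closest to Crls1 (0.940) and Bud23 (0.932), and Bmpr2 to Aplp2 (0.955) and Vim (0.934). For the Id genes the closest were Itgb1 (0.939) and Micall1 (0.921) for Id1, Dip2b (0.946) and Plekha1 (0.945) for Id2, and Kdm6b (0.924) and Tbx3 (0.917) for Id3. Smad6 was closest to Tor2a (0.915) and Rnf115 (0.884), and Bambi to Ighmbp2 (0.850) and Fbxo3 (0.842).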

How the data were processed

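Per the labels' protocols, RNA of sorted cells was turned into strand-specific total RNA libraries (low input kit) and read in pairs. Trimmomatic, HISAT2, Subread, featureCounts and the mm10 build are in the submitters' processing notes. The authors deposited 1 table of unnormalized read counts, which featureCounts 1.5.3 made over RefSeq exons of mm10 on the reverse strand, per the file headers. The header's command has no fragment option, so both reads of a pair count.

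Gene identifiers were paired with symbols for 25275 of 27179 genes. Groups came from the titles. S15 was left out for holding under 1000 counts. CPM values are counts over the TMM-scaled library total. edgeR 4.0.16 (R 4.3.3) tested 13883 genes passing filterByExpr, with a coefficient per group in 1 fit of 14 libraries. Standard errors are the absolute log2 fold change divided by the square root of F, and correlations used 100000 permutations (two-sided). The test was checked on simulated data. Alternatives were DESeq2 1.42.0, its size factors in edgeR, limma-voom (limma 3.58.1) with sample weights, other filters, only the groups compared, a block of running numbers, inclusion of S15, a pseudocount of 0.1 for correlations, library totals without TMM, and leaving out libraries. The members, gene lists and the 4 libraries S07 to S10 were chosen with earlier results of these data known. Leaving out S11 and S12 together was chosen after seeing the data. It leaves S04 and S08 against S03 and S07 as the tumor fractions. The Lrig1 levels of S07 and S08 go against their labels. Of other pathway genes, those called and the 2 most abundant per role are named, and counts near 0. Lrig1 checks the sort. Tgfbr2 and Apc, also set as checks, are not discussed. The floor covers counting error only, whereas SDs and standard errors cover the spread between libraries.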

Additional observations from a re-analysis of the deposited data

Results flagged for a closer look

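In groups of 4 libraries the highest or lowest value was compared with the rest by Dixon's test at the 95% level, over 18 groups of values. It marked 2, and chance marks about 1 in 20 groups. Bmp2 in normal Lrig1-high libraries was 10.67 CPM in S10, against 3.11 to 4.05 CPM in the other 3. Bmpr2 in the same group was 50.68 CPM in S10, against 40.4 to 41.5 CPM in the other 3. S10 also had the lowest Lrig1 level of its group (36.4 CPM), and the part of that in these values was not tested.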

How the results depend on the processing

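The 9 genes with Fst and Tcf4 gave 50 log2 fold changes. Leaving out 1 library reversed 34 of 700 values, and 29 of 486 values under other alternatives were reversed. The cause was not tested. None of the reversed values was past the threshold. The count of called genes was 0 in each comparison, except 1 (tumor against normal, Lrig1-low) and 2 (sort in normal epithelium) with limma-voom, and it ran from 0 to 1 between tumor and normal Lrig1-high cells, between tumor fractions and for the interaction when 1 library was left out. The labels do not say that running numbers pair libraries. With runs of 4 numbers as a block the count stayed 0, and Fst had 5.11 (edgeR adjusted p = 0.0844).

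Reversed without S11 and S12, as log2 values: tumor against normal in Lrig1-high cells Bmp7 0.37, Bmpr1a -0.030, Id1 -0.12 and Id2 -0.34, in Lrig1-low cells Bmpr2 -0.056 and Id3 -0.12, averaged Id2 -0.063 and Smad6 -0.21, between tumor fractions Bmp7 0.24, Bmpr1a -0.081, Bmpr2 0.053 and Id3 0.21, and between normal fractions Id2 0.0067. Reversed with limma-voom: tumor against normal in Lrig1-high cells Bmp2 0.35 and Bmp7 0.041, in Lrig1-low cells Bmpr1a -0.036, averaged Bmp2 0.13 and Smad6 -0.045, and between tumor fractions Smad6 -0.26. Without S07 to S10, tumor against normal in Lrig1-low cells gave Bmpr1a -0.16 and Smad6 0.16, averaged Bambi 0.029, and the normal fractions Bmpr1a -0.028. With S15, tumor against normal Bmpr1a in Lrig1-low cells was -0.043 and Id2 between normal fractions 0.0023. Without a filter Id2 between normal fractions was 0.012. Between normal fractions Bmpr1a, at 0.00047, also changed sign with DESeq2 (-3.9e-05), its size factors (-0.00029) and the filter of 1 CPM in 4 libraries (-0.0012).

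Leaving out 1 library at a time, ranges that crossed 0 were, for tumor against normal in Lrig1-high cells, Bmp2 -0.86 to 0.20, Bmp7 -0.62 to 0.37, Bmpr1a -0.031 to 0.57, Bmpr2 -0.016 to 0.13, Id1 -0.12 to 0.77 and Id2 -0.35 to 1.41. In Lrig1-low cells they were Bmpr1a -0.082 to 0.11, Bmpr2 -0.041 to 0.58, Id3 -0.099 to 0.87 and Smad6 -0.69 to 0.34, and averaged Bambi -1.41 to 0.0082 and Bmpr1a -0.012 to 0.30. Between tumor fractions they were Bmpr1a -0.016 to 0.53, Id1 -0.98 to 0.11, Id2 -1.34 to 0.73, Id3 -0.67 to 0.31 and Smad6 -0.075 to 1.19, and between normal fractions Bmpr1a -0.074 to 0.078 and Id2 -0.25 to 0.20. Without TMM scaling 38 of 40 group means in CPM moved by less than 1 SD. Low counts limit Bambi, Bmp2, Bmp4, in S12 Bmp7 and, in normal libraries, Fst most.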
